A study of Mus musculus with 2 samples.

Results

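The miRNA cluster of the host gene Mir17hg, commonly named for its outer hairpins Mir17 and Mir92-1 and labelled so in the plots, and its paralogs Mir106b-25 and Mir106a-363 were followed in microRNA sequencing of mouse adrenal gland. Members were the 10 miRNA genes whose GENCODE M21 symbol is Mir17, Mir19a, Mir20a, Mir19b-1, Mir92-1, Mir106b, Mir93, Mir25, Mir363 or Mir92-2, out of 2202 miRNA genes counted in each library. All 10 had a row in both tables. The other 5 genes of the clusters, namely Mir18, Mir106a, Mir18b, Mir20b and Mir19b-2, are given beside them. The series holds 1 group with 2 replicates, made from total RNA of C57BL/6J adrenal gland and described as wild type in a free-text label. The labels call them biological replicates 1 and 2, yet both cite the same donor record, so separate animals cannot be assumed. P-values measure only whether these libraries differ beyond counting noise, and such a difference may be technical. The labels leave age and stage of development open, and both samples are called male in free text although sex is elsewhere given as not collected. No treatment or genotype is compared, so the values are levels in 1 tissue and the spread between 2 libraries.

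A polycistronic miRNA cluster is transcribed as a long precursor, from which the Drosha and Dicer enzymes cut each hairpin to a mature miRNA. The mature miRNA guides Argonaute proteins to messenger RNAs that pair with its seed, so miRNAs with the same seed are expected to share many targets. The Mir17hg cluster is known as a target of Myc and as a driver of proliferation and survival in lymphoid tumours. The cell death gene Bcl2l11 is an established target of the cluster. The Mir106b-25 cluster lies within Mcm7, which encodes a subunit of the replicative helicase. No measure of proliferation or of target messenger RNA is part of these data.

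The mature forms are printed because the results below turn on their seeds and on which of them occur at more than 1 locus. Sequences are from RefSeq on GRCm38.p6, 5′ to 3′, with the seed (bases 2 to 8) in capitals, and for each gene the arm generally taken as the functional one is shown. Of the 10 members, 4 carry the miR-17 seed AAAGUGC, 4 carry the miR-92a seed AUUGCAC and 2 carry the miR-19 seed GUGCAAA.
miR-17-5p: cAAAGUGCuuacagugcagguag
miR-20a-5p: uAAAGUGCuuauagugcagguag
miR-106b-5p: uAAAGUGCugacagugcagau
miR-93-5p: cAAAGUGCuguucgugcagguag
miR-92a-3p: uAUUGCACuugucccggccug
miR-25-3p: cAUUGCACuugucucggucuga
miR-363-3p: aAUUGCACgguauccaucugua
miR-19a-3p: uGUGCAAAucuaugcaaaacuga
miR-19b-3p: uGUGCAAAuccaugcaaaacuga

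Each seed group spans clusters, except that both miR-19 members lie in the Mir17hg cluster. With positions counted from 1 at the 5′ end, miR-19a-3p and miR-19b-3p differ by U11C alone. MiR-17-5p and miR-20a-5p differ by C1U and C12U, and miR-92a-3p and miR-25-3p by U1C, C14U and C18U over 21 bases. The seed of miR-363-3p is that of miR-92a-3p, but 11 of the 21 bases compared differ. The form miR-92a-3p is made by both Mir92-1 and Mir92-2, whose hairpins share a stretch of 22 nt that holds all of it. The form miR-19b-3p is made by Mir19b-1 and Mir19b-2, which share 25 nt. The tables count multimapping reads on a line of their own and not by gene, so reads that lie wholly within such a stretch are not in the counts of these 4 genes. Their levels are therefore uncertain. The other 7 members shared at most 17 nt with a hairpin at another locus.

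On mm10 the Mir17hg hairpins lie on the plus strand of chromosome 14, within 836 nt and within exons of their noncoding host gene. In 5′ to 3′ order its members are Mir17 (chr14:115043671-115043754), Mir19a (chr14:115044000-115044081), Mir20a (chr14:115044157-115044263), Mir19b-1 (chr14:115044305-115044391) and Mir92-1 (chr14:115044427-115044506), with Mir18 between Mir17 and Mir19a. The Mir106b-25 hairpins, Mir106b (chr5:138165737-138165818), Mir93 (chr5:138165523-138165610) and Mir25 (chr5:138165321-138165404), lie on the minus strand within 498 nt. They stand in introns of the protein-coding transcripts of Mcm7, and Mir93 and Mir25 also overlap an exon of another Mcm7 transcript. Mir92-2 (chrX:52741838-52741928) and Mir363 (chrX:52741693-52741767) close the Mir106a-363 cluster of 6 hairpins, which spans 875 nt on the minus strand of the X chromosome. No host gene is annotated over these 2.

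Sense-strand counts over all miRNA genes came to 10263894 in replicate 1 and 3525666 in replicate 2, or 49.8% and 33.2% of reads. Unmapped reads were 13.8% and 41.4% of the libraries and multimapping reads were 32.6% and 22.7%. Levels are CPM, counts scaled to the same assigned total, and were compared between genes as read counts, each read covering about 1 mature form. They were not scaled by length and were not calibrated for differences between sequences. Where a gene had no count, up to 3 counts remain possible (0.292 CPM at the depth of replicate 1, 0.851 CPM at that of replicate 2), and this limit and all intervals cover counting error only. The tissue label was checked against markers. The neuroendocrine genes Mir375, Mir7-1, Mir7-2 and Mir7b, known from neuroendocrine cells such as those of the adrenal medulla, took 7.34% and 8.01% of counts. Most of this was Mir375, with 68022 and 76044 CPM. The liver gene Mir122 had 104 and 97.6 CPM, above the 10 CPM taken as detected below. The 4 muscle genes summed to 3.51 and 4.82 CPM, with Mir208a and Mir208b at 0. In whole tissue, fewer cells that express a miRNA and less of it per cell cannot be told apart.

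Together the 10 members took 0.316% ± 0.019 of assigned counts (SD, n = 2), or 3161 ± 194 CPM. Of these, 7 members reached 10 CPM or more in both replicates, a level taken as detected, which 12.1% of all miRNA genes reached. Mean levels of all 10 ran from 901 CPM for Mir17 to under 1 CPM for Mir19a. Among detected genes the median level was 228 CPM, and 5 of the 7 detected members stood above it. The median over all 10 members was 252 CPM, beside 0 over all 2202 genes, of which 1435 had no count in either library.

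Mir17, the hairpin at the 5′ end of the Mir17hg cluster, stood at 1048 CPM in replicate 1 against 755 CPM in replicate 2, or 901 ± 207 CPM (SD, n = 2). Mir93, which has the same seed and lies in Mcm7, had 786 and 790 CPM. Mir17 was the higher of the pair in replicate 1 and Mir93 in replicate 2, so their order was not settled by these libraries. Within replicate 1 the ratio of Mir17 to Mir93 was 1.33 with an exact 95% interval from 1.30 to 1.37. Within replicate 2 it was 0.955, from 0.906 to 1.01. The remaining miR-17 seed members, Mir20a and Mir106b, formed a second pair of like level. Mir20a had 393 and 317 CPM and Mir106b had 387 and 333 CPM. Their ratio was 1.01 (interval 0.970 to 1.06) in replicate 1 and 0.951 (0.875 to 1.03) in replicate 2.

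Among the miR-92a seed members, Mir92-1, the last hairpin of the Mir17hg cluster, stood highest. Its level was 502 CPM in replicate 1 against 612 CPM in replicate 2, below Mir93 and above Mir106b and Mir20a in both. Mir25, the last hairpin of the Mcm7 cluster, had 137 and 161 CPM. The ratio of Mir92-1 to Mir25 was 3.66 in replicate 1 and 3.81 in replicate 2, although the reads of miR-92a-3p placed at both of its loci are missing from it. Mir92-2, which makes the same miR-92a-3p from the X chromosome, had 36.6 and 39.1 CPM. Uniquely placed reads were thus 13.7 and 15.6 times as many at Mir92-1 as at Mir92-2, and how the shared reads divide between the loci was not analysed here. Mir363 had 7.31 and 15.3 CPM from 75 and 54 counts, and so passed 10 CPM in replicate 2 alone.

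The miR-19 seed members were close to absent from uniquely placed reads. Mir19b-1 had 7 counts in replicate 1 and 10 in replicate 2, or 0.682 and 2.84 CPM, and its partner Mir19b-2 had none. Mir19a had 2 counts and 0 counts. Both genes lie between detected hairpins of the same host RNA, Mir19a between Mir18 and Mir20a, and Mir19b-1 between Mir20a and Mir92-1. For Mir19b-1, the shared stretch of 25 nt covers all of miR-19b-3p. For Mir19a no such stretch was found among annotated hairpins. The form miR-19a-3p stood in no other of the 1005 RefSeq hairpins, and the longest stretch Mir19a shared with a hairpin at another locus was 13 nt. Copies outside annotated hairpins were not searched, and the part of the base difference from miR-19b-3p in the placement of reads was not tested. Mir17 had 5379 times the counts of Mir19a in replicate 1, with an exact 95% interval from 1489 to 44422. In replicate 2 the ratio was 887 with Mir19a set to a floor of 3 counts, and its exact 95% lower limit was 721.

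**Figure D1:**
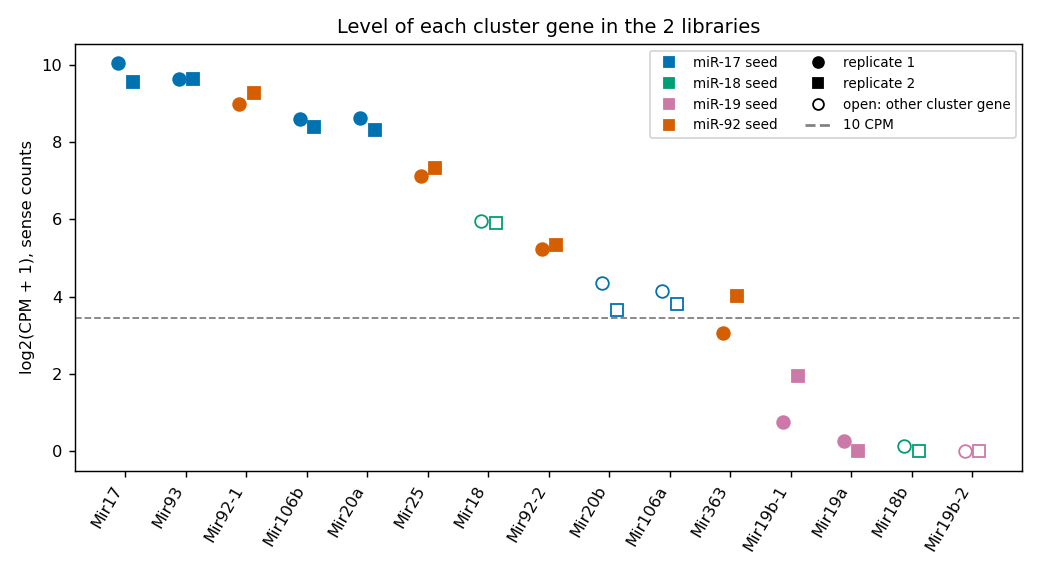
Level of each gene of the 3 clusters as log2(CPM + 1), ordered by mean level, with circles for replicate 1 and squares for replicate 2. Colour gives the seed, filled marks are the 10 members, open marks the other 5 cluster genes, and the dashed line is 10 CPM. Mir17 and Mir93 exchange places between the libraries, and the miR-19 seed genes lie at the bottom with 0 to 10 counts.

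Neighbours in the order of mean level were read as separate where the lower library of the higher gene exceeded the higher library of the lower gene. From Mir93 down to Mir92-1, to the pair of Mir106b and Mir20a, to Mir25 and to Mir92-2, every step between members was separate. The pair of Mir17 and Mir93 and the pair of Mir106b and Mir20a were not. Below them Mir363 was separate from Mir19b-1. Mir19b-1 and Mir19a could not be told apart, since the limit of 0.851 CPM for Mir19a in replicate 2 exceeds the 0.682 CPM of Mir19b-1 in replicate 1. With 2 libraries this is a description of their ranges, and of uniquely placed reads alone. Reads placed at both copies are missing from Mir92-1, Mir92-2 and Mir19b-1, so the places of these genes in the order are not settled.

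Genes of the same precursor differed widely in level. In the Mir17hg cluster, Mir17 had 2.67 times the counts of Mir20a in replicate 1 and 2.38 times in replicate 2. Against Mir92-1 it had 2.09 and 1.23 times as many. The ratio to Mir92-1 thus moved between the libraries by more than the ratio to Mir20a, which shares the seed of Mir17. Mir18, which carries its own seed AAGGUGC, had 60.9 and 58.7 CPM, and Mir17 exceeded it 17.2-fold and 12.9-fold. In Mir106b-25 the middle hairpin stood highest, with Mir93 at 2.03 and 2.37 times Mir106b and at 5.73 and 4.92 times Mir25.

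**Figure D2:**
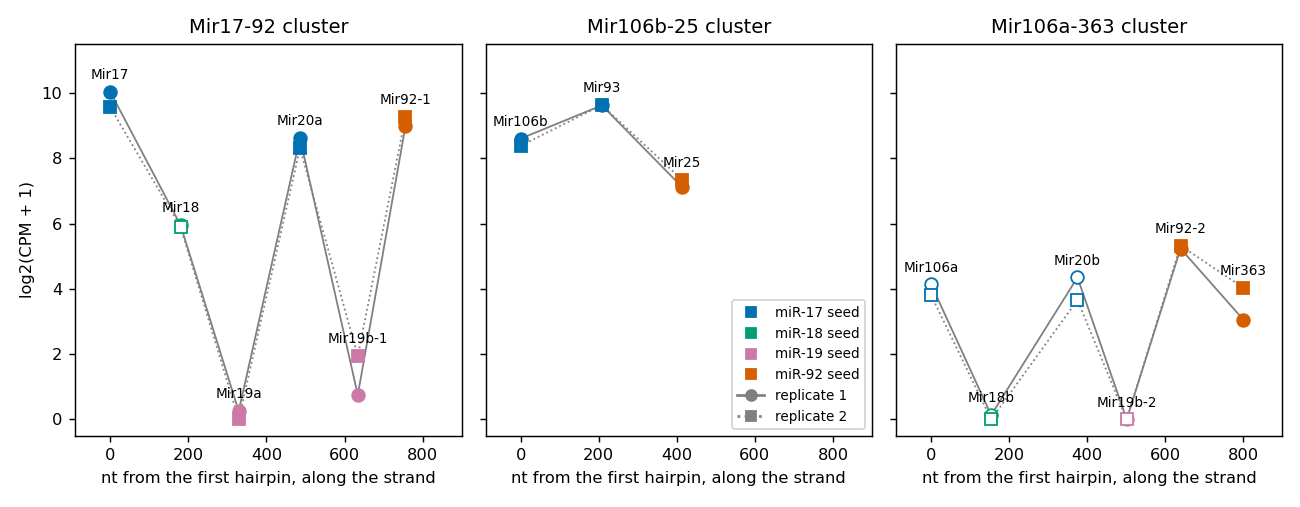
Levels along each cluster, as log2(CPM + 1) against the distance in nt from the 5′ end of its first hairpin, with solid lines and circles for replicate 1 and dotted lines and squares for replicate 2. Colour gives the seed and open marks are the cluster genes that are not members. In the Mir17hg cluster, Mir17, Mir20a and Mir92-1 stand high and Mir19a and Mir19b-1 near 0, and in Mir106a-363 Mir18b and Mir19b-2 lie at or near 0 between genes of 11 to 38 CPM.

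In uniquely placed reads the X-linked cluster stood far below its paralogs. Its members Mir92-2 and Mir363 summed to 43.9 CPM in replicate 1 and 54.5 CPM in replicate 2. Outside the members, Mir20b had 19.4 and 11.6 CPM and Mir106a had 16.7 and 13.0 CPM. Mir17 had 62.9 and 57.8 times the counts of its paralog Mir106a, from which its mature form differs by U10A, and Mir20a had 20.3 and 27.2 times those of Mir20b. Mir18 had 625 counts against 1 for Mir18b in replicate 1, a ratio with an exact 95% interval from 112 to 24725. In replicate 2 the ratio was 69.0 with Mir18b set to a floor of 3 counts, and its exact 95% lower limit was 55.6. Of the 15 genes of the clusters 10 were detected, 3 of them outside the members (Mir18, Mir20b and Mir106a).

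Summed over members, the Mir17hg cluster gave 1815 ± 182 CPM (SD, n = 2), Mir106b-25 gave 1297 ± 19.3 CPM and Mir106a-363 gave 49.2 ± 7.44 CPM. The Mir17hg cluster exceeded Mir106b-25 by 1.48 times in replicate 1 (exact 95% interval 1.45 to 1.52) and by 1.31 times in replicate 2 (1.26 to 1.37). Without Mir92-1 and Mir19b-1, which share a stretch of 20 nt or more with another locus, the ratio was 1.10 in replicate 1 and 0.835 in replicate 2. Only genes of the Mir17hg cluster are left out here, so the ratio could only fall. Its value below 1 in replicate 2 therefore does not settle which cluster gave more. For the miR-17 seed members, which of these clusters gave more counts differed between libraries. Mir17 and Mir20a together had 1441 and 1071 CPM, and Mir106b and Mir93 together had 1173 and 1123 CPM. Their ratio was 1.23 (1.20 to 1.26) in replicate 1 and 0.954 (0.912 to 0.998) in replicate 2.

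Counts are per hairpin and include both arms, so sums by seed are sums over genes grouped by the seed of the arm shown above, not counts of reads that carry it. The miR-17 seed members held 79.3% of the members' counts in replicate 1 (Wilson 95% interval 78.8% to 79.7%) and 72.5% in replicate 2 (71.7% to 73.4%). The miR-92a seed members held 20.7% (20.3% to 21.1%) and 27.4% (26.5% to 28.2%), and the miR-19 seed members 0.0266% and 0.0938%. The intervals of the libraries did not overlap for the miR-17 seed or for the miR-92a seed. These 2 shares make up nearly all of the members' counts, so the second result repeats the first. The intervals cover counting error only, and 52.8% of all genes tested below differed between the libraries beyond such error. In CPM the miR-17 seed members summed to 2614 and 2194, and the miR-92a seed members to 683 and 827. The counts of the miR-17 seed genes were 3.83 times those of the miR-92a seed genes in replicate 1 and 2.65 times in replicate 2. These shares refer to uniquely placed reads, and the miR-92a and miR-19 shares lack the reads placed at both copies. For Mir92-1 and Mir92-2 the share of their counts that comes from the 5p arm was not analysed here.

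**Figure D3:**
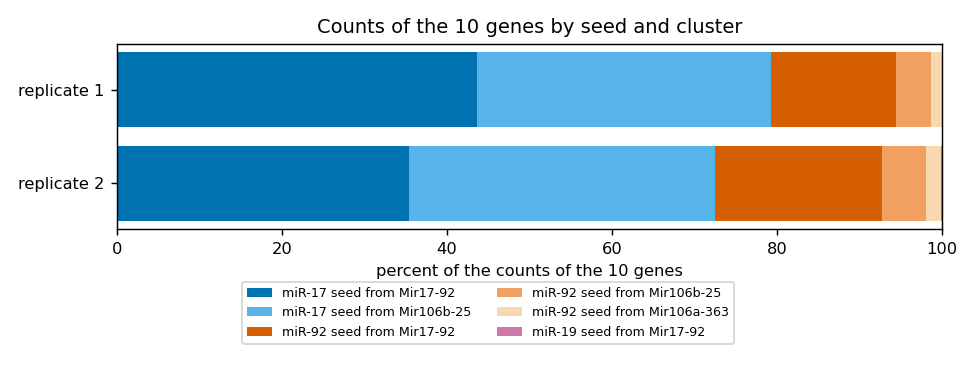
Counts of the 10 members in each library, as percent of their sum, divided by seed and by the cluster of the gene. The blue segments, the genes with the miR-17 seed, end at 79.3% in replicate 1 and 72.5% in replicate 2, and the part of it from the Mir17hg cluster is 43.7% and 35.4%.

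The replicates were compared by an exact two-sided binomial test on counts scaled by the trimmed mean of M-values (TMM), with Benjamini-Hochberg adjustment over the 443 genes with at least 10 counts. Of these, 52.8% differed at an adjusted p under 0.05. Of the 9 members tested 7 differed, a count to be read against that share, and Mir19a had too few counts. The test compares libraries of 1 group and says that they differ beyond counting noise, not why. The median absolute log2 ratio was 0.27 over the members tested and 0.45 over all genes tested. These medians were not matched for level: of the 443 genes tested, 277 averaged 10 CPM or more, and low counts widen the ratios.

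Among the members tested, the sign of the replicate difference was shared within the miR-17 seed and within the miR-92a seed. Mir93 was an exception, since its sign depended on the scaling. For the miR-19 seed only 1 member was tested, so no shared sign could be seen. The sign was mixed within the Mir17hg cluster and within Mir106b-25. This pattern by seed was seen in the data and has no test of its own. Over all genes tested 21.2% were higher in replicate 2 and 31.6% higher in replicate 1. All 4 miR-17 seed members had a log2 ratio of replicate 2 to replicate 1 below 0, and 3 were called. The log2 ratio was -0.49 for Mir17 (95% interval from -0.55 to -0.43, adjusted p 1.40e-58 in the exact binomial test), -0.33 for Mir20a and -0.24 for Mir106b. For Mir93 the log2 ratio was -0.01 (interval from -0.07 to 0.05), which did not pass and was 0.05 with DESeq2 size factors. The remaining miR-17 seed genes of the clusters had log2 ratios of -0.74 for Mir20b, which passed, and -0.36 for Mir106a, which did not.

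All 4 miR-92a seed members lay above 0, and 3 were called. The log2 ratio was 0.27 for Mir92-1 (interval from 0.20 to 0.34, adjusted p 2.53e-12 in the exact binomial test), 0.21 for Mir25 and 1.05 for Mir363. For Mir92-2 it was 0.08 (interval from -0.21 to 0.36) and did not pass. Mir19b-1, with the miR-19 seed, had a log2 ratio of 2.01 on 7 and 10 counts, with an interval from 0.50 to 3.67 and an adjusted p of 0.00856 in the exact binomial test. Within the Mir17hg cluster, therefore, Mir17 and Mir20a were lower and Mir92-1 higher in replicate 2, and within Mir106b-25 the same held for Mir106b and Mir25.

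**Figure D4:**
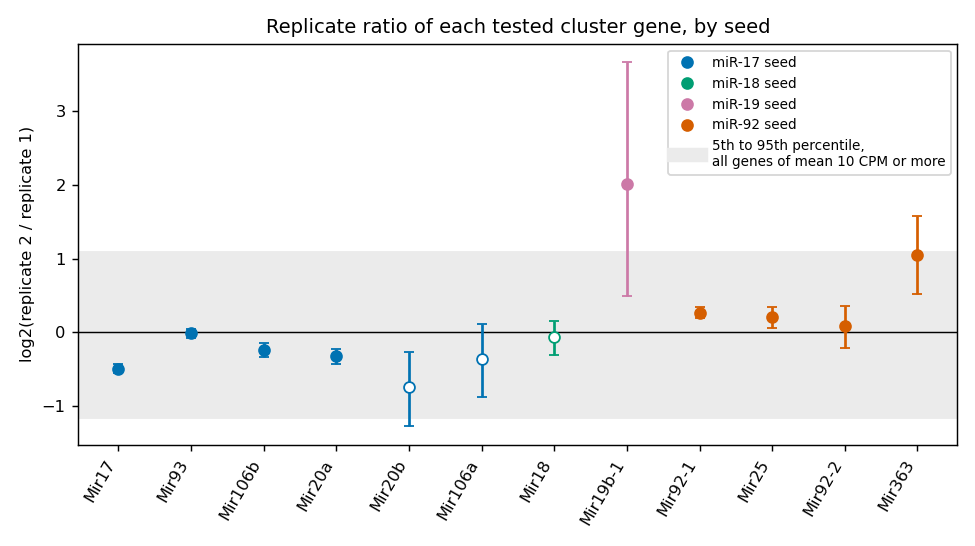
Log2 ratio of replicate 2 to replicate 1 for the 12 cluster genes tested, on TMM-scaled counts, with exact 95% intervals as bars. Genes are ordered by seed, filled marks are members, and the grey band holds the 5th to 95th percentile (-1.17 to 1.10) of the 277 genes averaging 10 CPM or more. The miR-17 seed genes lie at or below 0 and the miR-92a seed genes at or above it. Mir19b-1, at 7 and 10 counts, is below the level of the genes in the band and is not to be read against it.

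Markers of blood cells moved between the same libraries. The erythroid genes Mir451a and Mir144 summed to 8357 CPM in replicate 1 and 1804 CPM in replicate 2, and both were lower in replicate 2. The 3 leukocyte genes listed, Mir142, Mir150 and Mir223, summed to 508 and 876 CPM, and all 3 were higher in replicate 2. Other genes active in immune cells went the other way. Mir155 had 172 and 108 CPM, and Mir146 had 967 and 716 CPM. These 2 genes were set beside the list afterwards, and the level of Mir146 is uncertain, since another locus shares a 20 nt stretch with it. Whether leukocytes as a whole shifted was not tested. The part of blood cells in the replicate differences of the members was not tested, nor was that of the unmapped share.

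MiRNA genes with the same seeds but outside the clusters were few. The table of 1738 RefSeq mature forms held 7 with the miR-92a seed and 7 with the miR-17 seed. Outside the clusters these came from Mir92b, Mir32 and Mir367 and from Mir6383, respectively. The mature forms of the detected genes are shown for their match to miR-92a-3p.
miR-92b-3p: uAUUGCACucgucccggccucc
miR-32-5p: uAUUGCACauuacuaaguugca
Mir92b had 46.1 and 46.2 CPM and Mir32 had 36.2 and 29.2 CPM, both near the level of Mir92-2. Mir367, known from pluripotent cells, and Mir6383 had no count. Unlike the miR-92a seed members, Mir92b had a log2 ratio of -0.01 and Mir32 of -0.32, and neither passed the exact binomial test (adjusted p 1 and 0.0755). The difference between these genes and the members was not tested.

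In uniquely placed reads the members had fewer counts than a pair of other groups of miRNA genes tied to the cell cycle. The Mir15 and Mir16 family with Mir195a and Mir497, known to restrain the cell cycle, summed to 5508 CPM in replicate 1 and 8715 CPM in replicate 2. Counts of the members were 0.599 times those of that family in replicate 1 (exact 95% interval 0.591 to 0.607) and 0.347 times in replicate 2 (0.339 to 0.355). The cluster of Mir322, Mir503 and Mir351 on the X chromosome summed to 19636 and 19016 CPM, and the members had 0.168 and 0.159 times as many counts. Mir16-1 and Mir16-2 share a stretch of 20 nt with another locus, so the sum of the Mir15 and Mir16 family is uncertain. Reads placed at both copies are also missing from Mir92-1, Mir92-2 and Mir19b-1. The sum of the members and these ratios are therefore uncertain too.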

How the data were processed

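MicroRNA libraries with inserts below 30 nt, per the labels, were sequenced from 2 adrenal gland samples of 1 group. The authors deposited raw counts per miRNA gene, in 1 table per library, on build mm10 with GENCODE M21, per the accompanying description files. No source used here names the aligner or counter. Sense-strand counts were used, the strand of each column being read from the values. Multimapping, unmapped and no-feature lines were left out of library sizes. Reads are not split by hairpin arm.

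CPM was computed over assigned counts. Symbols, positions and hosts came from GENCODE M21, mature forms from RefSeq (all 15 cluster genes matched, with hairpins identical to GENCODE). TMM factors came from edgeR 4.0.16 in R 4.3.3 (0.994 and 1.006), and size factors from DESeq2 1.42.0 served as an alternative. The replicate test ran on the 443 genes with at least 10 counts over both libraries. It was also run on simulated counts with counting noise alone, which cannot show how it behaves under added variation between libraries. Log2 ratios had 0.5 counts added. Python 3.11.15 with scipy 1.17.1 did the rest.

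The members, lists and tests were chosen with earlier results of these data known. Genes were named by rule: the members, the other cluster genes and genes sharing their seeds. The rule also took the genes next in level to the highest member of each cluster, and the 2 compared groups given as sums. Markers of cell types and tissues were named from lists beside these, and Mir155 and Mir146 were set beside the leukocyte list afterwards.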

Additional observations from a re-analysis of the deposited data

How the results depend on the processing

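Uniquely placed reads set the main limit, since miR-92a-3p and miR-19b-3p each occur at 2 loci. Without members that share a stretch of 20 nt with another locus, the members held 0.256% of counts in place of 0.316%, the ratio of the Mir17hg cluster to Mir106b-25 was 0.967 in place of 1.40 (above 1 in replicate 1, below it in replicate 2), and the miR-17 seed share was 93.7% in place of 75.9%. This takes no gene from Mir106b-25 or from the miR-17 seed group. The members' share and the ratio could thus only fall, and the seed share only rise. The members' share was 0.361% with counts taken without regard to strand, where the assigned total is 12.4% smaller in each library, and 0.361% without the most abundant miRNA gene, which also lowers the total. Leaving out 1 replicate at a time gave 0.302% to 0.330% for that share, 1.31 to 1.48 for the ratio and 72.5% to 79.3% for the miR-17 seed share. With all 15 cluster genes, an alternative chosen after seeing the data, these were 0.325%, 1.44 and 74.7%. At 1 CPM 8 members were detected in place of 7. The same 7 members were called under DESeq2 size factors, total counts, no filter on low counts and counts without regard to strand. Calls over all genes ran from 206 to 234, but the number of genes tested differed. The share called was 52.8% of 443 genes in the main setting and 29.5% of 767 with no filter. It was 49.3% of 418 genes for counts without regard to strand. Scaling moved each member's log2 ratio by under 0.1 and changed the sign of Mir93 alone, to 0.05 with size factors and 0.01 with total counts. Without either replicate no test between replicates exists.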

Other observations

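The genes next in level to the highest member of each cluster, over the mean of 2 libraries, were of varied kinds. Mir17 ranked 71st of 2202, between Mir615 of the Hoxc region (911 ± 176 CPM, SD, n = 2) and Mir369 (909 ± 313 CPM) above it and Mir134 (844 ± 194 CPM) and Mir146 (841 ± 178 CPM) below it. Mir369 and Mir134 belong to the imprinted Dlk1-Dio3 region. Mir93 ranked 76th, below Mir107 (841 ± 664 CPM) and Mir29c (809 ± 198 CPM) and above Mir455 (770 ± 211 CPM) and Mir532 (767 ± 33.5 CPM). Mir92-2 ranked 221st, among Mir34b (39.0 ± 1.0 CPM), Mir665 (38.6 ± 5.71 CPM), Mir26a-2 (37.2 ± 29.3 CPM) and Mir5121 (35.0 ± 4.28 CPM). Mir146, Mir107, Mir29c and Mir26a-2 have levels made uncertain by 20 nt stretches that other loci share. The spread of Mir93, 2.80 CPM, was below that of all 4 of its neighbours, which is a description of 2 libraries.

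The hairpins of the 3 clusters gave almost no reads from the opposite strand. Over all 15 genes there were 0 opposite-strand counts in replicate 1 and 1 in replicate 2, at Mir106b, below the 3 counts that a count of 0 allows.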
